A study of Mus musculus with 12 samples.

Results

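H3K4me3, the trimethylated form of lysine 4 on histone H3, was mapped by Cut & Run in mouse embryonic fibroblasts that were wild type (WT) or carried an Fbxw7 knockout (KO). The account covers the 4 H3K4me3 libraries, 2 WT and 2 KO, of 12 libraries in the series. They were chosen by antibody and genotype labels, and only autosomal peaks were used. The other 8 libraries were made with antibodies against MLL4 or H3K4me1, and only the 4 H3K4me1 libraries are used here, for comparison. All cells grew in the same serum-supplemented medium, per the labels' protocols, and no other treatment is named. Neither the deleted part of Fbxw7, nor whether the KO is 1 clone, nor the culture or embryo behind each library is given in the labels. The p-values therefore measure only the spread between these libraries, which may be technical.

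Fbxw7 is an F-box protein that picks the substrates of an SCF ubiquitin ligase, which marks proteins such as cyclin E, Myc, Jun and the Notch receptors for degradation by the proteasome. H3K4me3 is laid down at the promoters of active genes by the SET1 and MLL methyltransferases, usually on the nucleosomes that flank a transcription start site. In Cut & Run an antibody tethers micrococcal nuclease to the mark, and the short DNA fragments it releases are sequenced. A peak is a stretch of the genome where the authors' peak caller found more fragments than in the local background. Its summit pileup is the number of fragments over its highest point.

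Depth set 1 WT library apart. WT replicate 1 held 11319701 fragments after duplicate filtering, with up to 2 fragments kept per position. WT replicate 2 held 6185767, KO replicate 1 held 5519477 and KO replicate 2 held 5938102, each with 1 fragment kept per position. WT replicate 2 is therefore the WT library that can be set beside the KO libraries at like depth. The autosomal lists held 16877 and 15552 peaks for WT, and 10186 and 11038 for KO.

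The KO peaks of H3K4me3 were short. The median peak length was 1222 bp in WT replicate 1 and 1060 bp in WT replicate 2, against 543 bp in KO replicate 1 and 584 bp in KO replicate 2. The groups did not overlap, and the difference of the group means was −578 bp (exact two-sided permutation p = 0.333, the smallest that 2 against 2 libraries can give). Peaks over 1 kb made up 61.7% and 53.9% of the WT lists and 10.2% and 14.2% of the KO lists. The long tail was nearly missing from the KO lists, with 4 and 6 peaks over 2 kb against 2445 and 1077 in WT. The H3K4me1 libraries of the same genotypes had median peak lengths of 573 and 561 bp in WT and 553 and 526 bp in KO, so for that mark the group medians lay closer together. The difference between the marks was not tested.

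**Figure D1:**
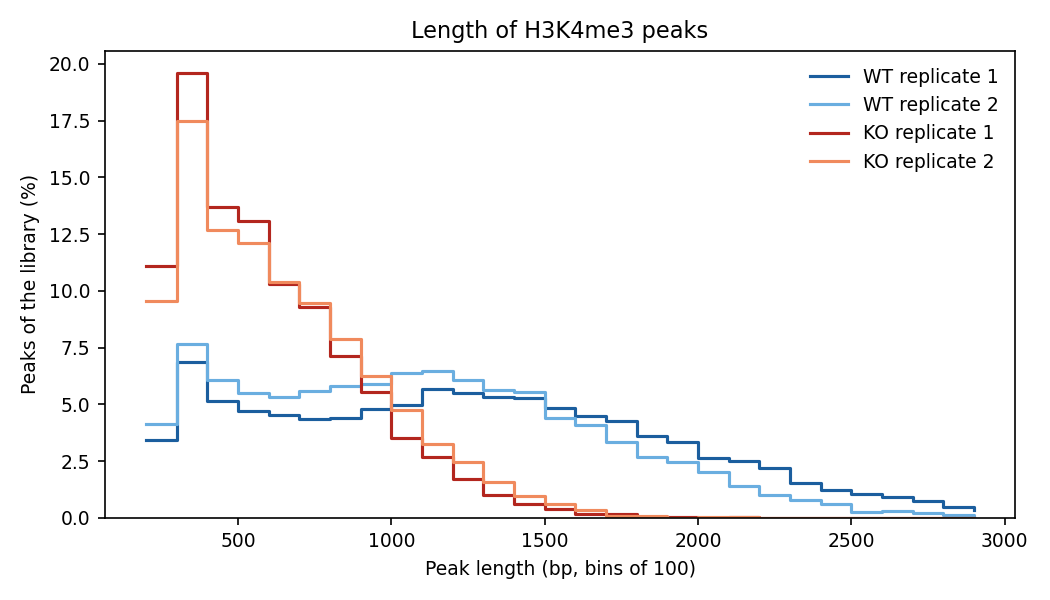
Share of each library's autosomal H3K4me3 peaks (vertical axis, percent) by peak length (horizontal axis, bins of 100 bp) in the 2 WT and 2 KO libraries. The KO lines peak at short lengths, with medians of 543 and 584 bp, and the WT lines spread to longer peaks, with medians of 1222 and 1060 bp.

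Summits were lower in the KO libraries as well. Scaled to 1000000 fragments, the median summit pileup was 6.54 and 6.30 in WT and 2.90 and 2.86 in KO. The groups did not overlap, and the WT libraries, which differ in depth and in duplicates kept, lay close together. In the H3K4me1 libraries the same value was 1.51 and 1.55 in WT and 1.32 and 1.35 in KO. Fewer cells with the mark, less mark per cell and a less efficient H3K4me3 Cut & Run reaction cannot be told apart in these lists.

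The shape of the difference was followed within fixed regions, taking each of the 16877 peaks of WT replicate 1 as a region and counting the peaks of the other libraries in it. WT replicate 2 had a mean of 0.904 peaks per region, KO replicate 1 had 0.601 and KO replicate 2 had 0.650. No peak was found in 15.5% of regions in WT replicate 2, 46.1% in KO replicate 1 and 42.4% in KO replicate 2. The lower KO means thus came with more empty regions. When a region did hold a peak, it held several in 11.1% and 12.4% of cases in the KO libraries, against 6.74% in WT replicate 2. These pooled shares mix lengths: 999 of 9101 and 1151 of 9724 held regions were under 1 kb in KO, against 3915 of 14264. Under 1 kb the share was 0.332% in WT replicate 2 and lower in both KO libraries. The KO shares were higher from 1 to 2 kb, and from 2 to 3 kb at 26.7% and 31.3% against 22.8%. At 3 kb or more they were lower, at 41.5% and 38.8% against 59.6%. With lists cut to the same number of best peaks, the pooled shares were 11.7% and 10.7% against 1.93%. The mean number of peaks per region was then 0.924 and 0.931 against 0.945. With only peaks of −log10 q of at least 5 the pooled shares were 5.11% and 6.28% against 5.86%. The pooled excess of split regions in KO was thus not seen at that cutoff. These values have no test, since the regions come from 1 library.

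Peaks in held regions covered less of the region in KO. The mean share of bases covered was 81.2% in WT replicate 2, 43.7% in KO replicate 1 and 47.4% in KO replicate 2. In WT replicate 1 regions under 1 kb, 84.5% and 82.2% had no KO peak, against 39.3% with none in WT replicate 2. From 1 to 2 kb these shares were 25.1% and 20.3% against 0.915%, and from 2 to 3 kb 12.5% and 8.97% against 0. In the 2 to 3 kb class the KO peaks covered 34.5% and 38.9% of a held region and WT replicate 2 peaks 83.2%. Long WT regions were therefore usually still marked in KO, over a smaller part of their length, while short ones were usually without a KO peak. With the 15552 peaks of WT replicate 2 as regions, coverage of held regions was 96.4% in WT replicate 1 and 50.6% and 54.6% in the KO libraries.

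**Figure D2:**
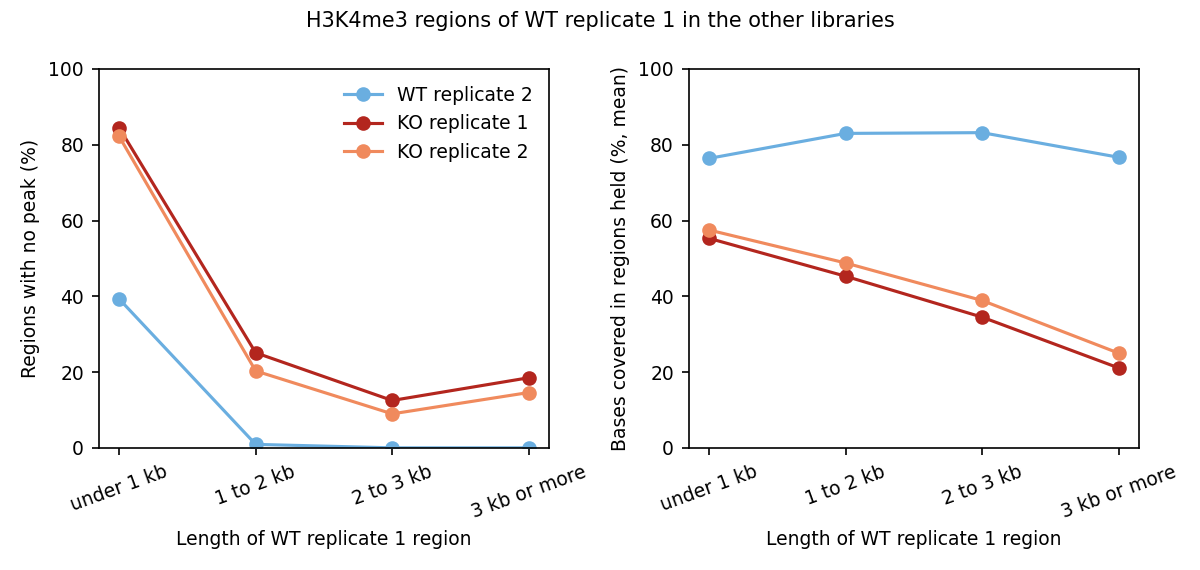
H3K4me3 regions of WT replicate 1 by length class (horizontal axis, both panels): percent of regions with no peak (left) and mean percent of bases covered in the regions that hold a peak (right), for WT replicate 2 and the KO libraries. The KO share with no peak goes from 84.5% and 82.2% under 1 kb to 12.5% and 8.97% at 2 to 3 kb, and KO coverage is below that of WT replicate 2 in every class.

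Peaks were then placed against the transcription start, using 5166 genes with 1 listed start site and a peak within 1 kb of it in all 4 libraries. In WT the median peak reached 491.5 and 396 bp upstream of the start and 1136 and 1045 bp downstream. In KO the median upstream edge lay at −29 and −15 bp, which means that it fell inside the gene, and the downstream edge lay at 731.5 and 764 bp. The KO minus WT difference was −466 bp upstream and −343 bp downstream (exact two-sided permutation p = 0.333 for each, the smallest possible). The start base itself was under a peak at 85.5% and 72.6% of the genes in WT and at 26.2% and 30.2% in KO. The groups did not overlap in any of the 3 measures.

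What was left in KO lay mostly on the gene side. Genes whose only peak lay wholly downstream of the start made up 63.6% and 60.7% of the genes with 1 peak in the KO libraries, against 10.2% and 21.1% in WT. The summit kept its place: its median position was 281 and 300 bp downstream of the start in WT and 320 and 323 bp in KO, and it lay downstream at 80.3% and 80.1% of genes in WT and 80.1% in each KO library. Between the WT libraries the summits of a gene differed by a median of 74 bp, between the KO libraries by 164 bp, and between a WT and a KO library by 119 to 141 bp. The WT to KO shifts were thus no larger than those between the KO libraries. Among genes with 2 peaks, the start lay in the gap between them in 62.5% and 67.8% of cases in WT and 63.4% and 65.2% in KO.

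**Figure D3:**
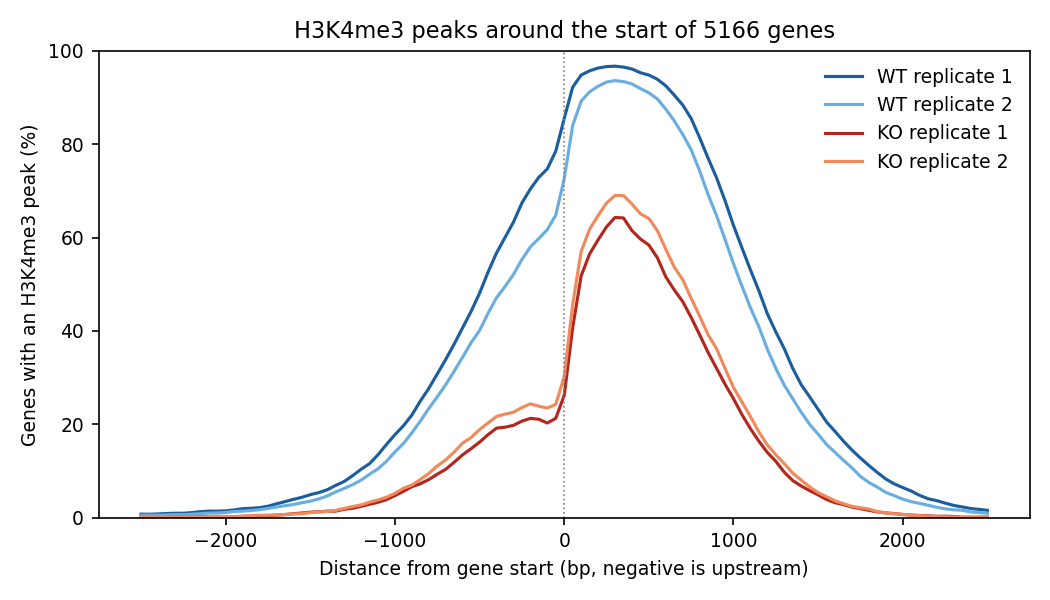
Percent of 5166 genes with an H3K4me3 peak (vertical axis) at each distance from the transcription start (horizontal axis, bp, negative is upstream) in the 2 WT and 2 KO libraries. All 4 lines are highest at 300 bp downstream, at 96.7% and 93.6% in WT against 64.3% and 69.0% in KO, and at 250 bp upstream the KO lines stand at 20.7% and 23.6% against 67.4% and 55.3%.

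Genes with a neighbour could lend each other peaks, so the genes with no other gene within 3 kb were taken alone, a choice made after the values were seen. In these 3415 genes the upstream edge lay at 389 and 270 bp in WT and −55 and −40 bp in KO, and the start was covered at 84.5% and 70.6% of genes against 23.8% and 28%. Peak height moves with these values. Among peaks with a pileup of 15 to 20 fragments in every library, the median length was 552 and 636.5 bp in WT and 591 and 615 bp in KO, so at like height the lengths of the groups overlapped. At those peaks the start was covered at 64.0% and 64.1% of 189 and 290 genes in WT and at 25.6% and 30.0% of 2448 and 2450 genes in KO. These are different genes in each library, with pileups well under the WT medians of 74.0 and 39.0 fragments, and the part that height has in the shorter KO peaks was not tested.

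The stretch just upstream of the start is where this difference can be read gene by gene. Over the 250 bases upstream of 8404 listed starts, KO peaks covered a mean of 20.5% and 23.7% of the bases and WT peaks 70.4% and 58.4%. At 68.1% and 64.3% of these starts the stretch had no base under a KO peak, against 18.0% and 28.2% in WT. The sequences below are from the RefSeq promoter table of GRCm38.p6, which has mm10 coordinates, and are printed 5′ to 3′ on the strand of the gene with each CG pair in capitals. The first 3 were under WT peaks and under no KO peak, and the last 3 were under a peak over all 250 bases in all 4 libraries. They are the first start of Fbxw7 (chr3:84815327-84815576, plus strand), Cux1, a homeobox transcription factor gene (chr5:136565982-136566231, minus strand), H4f16, a histone H4 gene (chr6:136804432-136804681, minus strand), Apobec3, a cytidine deaminase that restricts retroviruses (chr15:79892158-79892407, plus strand), E030030I06Rik, an uncharacterised gene (chr10:22149271-22149520, minus strand), and Urm1, which encodes a ubiquitin-like protein used in tRNA thiolation (chr2:29827139-29827388, plus strand).
Fbxw7: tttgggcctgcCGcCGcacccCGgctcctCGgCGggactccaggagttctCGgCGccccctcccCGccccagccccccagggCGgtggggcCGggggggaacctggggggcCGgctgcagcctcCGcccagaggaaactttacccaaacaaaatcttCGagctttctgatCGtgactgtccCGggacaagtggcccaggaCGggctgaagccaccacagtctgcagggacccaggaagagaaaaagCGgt
Cux1: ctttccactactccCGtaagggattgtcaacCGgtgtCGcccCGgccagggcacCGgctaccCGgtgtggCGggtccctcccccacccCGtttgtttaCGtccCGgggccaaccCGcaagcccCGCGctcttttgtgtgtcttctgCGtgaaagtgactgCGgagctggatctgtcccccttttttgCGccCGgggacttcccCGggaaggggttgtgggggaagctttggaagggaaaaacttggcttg
H4f16: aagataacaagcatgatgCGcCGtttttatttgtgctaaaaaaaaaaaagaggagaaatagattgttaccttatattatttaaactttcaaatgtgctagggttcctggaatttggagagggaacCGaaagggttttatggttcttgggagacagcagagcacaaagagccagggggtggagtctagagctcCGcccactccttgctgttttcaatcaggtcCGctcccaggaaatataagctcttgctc
Apobec3: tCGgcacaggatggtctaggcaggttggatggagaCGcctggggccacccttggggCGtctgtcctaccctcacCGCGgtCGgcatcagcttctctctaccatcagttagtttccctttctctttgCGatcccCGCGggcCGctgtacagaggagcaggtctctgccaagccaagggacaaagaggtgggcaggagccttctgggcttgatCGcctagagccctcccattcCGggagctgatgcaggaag
E030030I06Rik: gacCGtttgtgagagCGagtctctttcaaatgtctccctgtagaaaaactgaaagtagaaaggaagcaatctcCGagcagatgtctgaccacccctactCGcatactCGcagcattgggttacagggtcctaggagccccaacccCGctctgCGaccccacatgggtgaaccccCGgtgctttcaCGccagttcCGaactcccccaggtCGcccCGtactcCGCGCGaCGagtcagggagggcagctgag
Urm1: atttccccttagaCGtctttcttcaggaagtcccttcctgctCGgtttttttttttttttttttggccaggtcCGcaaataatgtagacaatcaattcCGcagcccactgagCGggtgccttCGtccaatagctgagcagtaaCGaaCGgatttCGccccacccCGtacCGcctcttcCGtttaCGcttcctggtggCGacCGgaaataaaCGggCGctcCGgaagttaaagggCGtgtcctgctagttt

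CG content overlapped between the printed sets. The 3 sequences without a KO peak held 17, 18 and 5 CG pairs, and the 3 covered in all libraries held 12, 16 and 19. The median over all 20085 listed promoters was 10. Across genes, the 300 bases around the start held a median of 22 CG in genes with a peak in all 4 libraries, 20 in genes with a peak in both WT and neither KO library, and 3 in genes with no peak. The difference of −2 between the first 2 classes became 0 with lists of equal length, where both classes had a median of 22.

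Fbxw7, the targeted gene (mm10, chromosome 3, 84814990 to 84979198), carried H3K4me3 at 2 of its 3 listed starts in WT. WT replicate 1 had a peak of 2686 bp with a pileup of 72 fragments at the first start and one of 1635 bp with a pileup of 58 at the last. WT replicate 2 had peaks of 1404 and 1013 bp around the first start and 1649 bp at the last, with pileups of 35, 30 and 28. KO replicate 1 had 1 peak, of 500 bp, at the last start, with a pileup of 10. KO replicate 2 had 1 peak, of 416 bp, just inside the first start, with a pileup of 15. The KO libraries thus each kept a short peak, at different starts. Fbxw7 ranked at percentiles 13.3 and 13.2 in WT and 4.81 and 25.6 in KO, so the KO values lay on either side of the WT ones. The KO replicate 1 rank was taken at the last start and those of the other libraries at the first. The covered length of Fbxw7 relative to the library median differed by −2.07 on the log2 scale (limma, Benjamini-Hochberg adjusted p = 0.114). That length sums 4321 and 4066 bp over both starts in WT, against 500 and 416 bp at 1 start each in KO. Because the deleted part is not given, these peaks do not check the genotype.

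To compare genes with the overall loss taken out, each gene was ranked by pileup within its own library. The ranks covered 7934 genes with a peak in all 4 libraries, counted as 7174 features because genes that share their peaks were merged. At these genes the median pileup was 102 and 50 fragments in WT and 17 and 18 in KO. The spread of pileup above the median, as the log2 ratio of the 90th percentile to the median, was 0.457 and 0.465 in WT and 0.497 and 0.531 in KO (exact two-sided permutation p = 0.333). With lists cut to the same number of best peaks it was 0.453 and 0.436 in WT against 0.497 and 0.453 in KO, so the groups met. Weak genes stood closer to the median in KO, where the lowest gene had 0.353 and 0.389 times the median pileup, against 0.167 and 0.160 times in WT. The KO pileups are small whole numbers near the level at which peaks are called, and many genes tie in rank. The order of genes was shared in part: Spearman's rho over these features was 0.851 between the WT libraries, 0.631 between the KO libraries and 0.633 to 0.665 between a WT and a KO library. For covered length, rho was 0.868 for the WT pair, 0.449 for the KO pair and 0.243 to 0.384 across genotypes.

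No gene passed the test of rank. Limma with Benjamini-Hochberg adjustment called 0 of 7174 features (0% in each direction, smallest adjusted p = 0.384), with 419 higher (5.84%) and 412 lower (5.74%) in KO at an unadjusted p under 0.05, 11.6% in all. On simulated data this fit also left known changes uncalled at 2 libraries a group, so the count of 0 does not show that ranks were alike. On the other scale tried, log2 pileup minus the library median, limma called 43 features higher (0.599%) and 16 lower (0.223%). Of the 43, 34 had a WT percentile under 10, the range in which KO values lie closer to the median, so that scale and the ranks answer different questions there. A gene was counted only with a peak in both KO libraries, where no value fell under 0.353 and 0.389 times the median. Genes weaker than that in WT could therefore enter only with a higher relative value in KO. For such genes a call on that scale does not measure a gain. Both KO libraries ranked a feature above both WT libraries at 1597 features (22.3%) and below at 1550 (21.6%).

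The 10 genes with the smallest p among those ranked higher in KO began with Apobec3 and Ifi27l2a. Apobec3 (chromosome 15, 79892058 to 79918218) had a pileup of 52 and 22 fragments in WT and 25 and 27 in KO. Within the ranked genes its percentiles were 2.59 and 1.28 in WT against 93.1 and 91.8 in KO, a difference of 90.5 points with a standard error of 17.2. Among all genes with a peak in both WT libraries, those without a KO peak included, it stood at 13.7 and 10.6. On the log2 relative scale the difference was 1.65 (limma adjusted p = 2.42e-04). Ifi27l2a (chromosome 12, 103433873 to 103443680), an interferon-induced gene scored at both gene ends because no start was listed, had pileups of 35 and 16 in WT against 22 and 24 in KO, and percentiles of 0.460 and 0.300 against 83.9 and 83.1. For both genes the percentiles of the groups did not overlap, while the pileups in fragments did. Scaled to 1000000 fragments, Apobec3 had 4.59 and 3.56 in WT and 4.53 and 4.55 in KO, which also overlap.

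The other 8 were spread over several functions. Hs3st5, a heparan sulfate sulfotransferase gene, stood at percentiles 1.40 and 2.45 in WT and 87.8 and 86.7 in KO. Tmem200a, a transmembrane protein gene, stood at 19.8 and 21.0 against 95 and 99.7. Cck, which encodes the peptide hormone cholecystokinin, stood at 0.0558 and 0.216 against 52.6 and 47.7. In these 3, as in the rest, both KO libraries were above both WT libraries, which picking by smallest p favours. Fuca2, which encodes a secreted fucosidase, stood at 4.08 and 1.59 against 67.6 and 73.6, and Lgr5, an R-spondin receptor gene, at 0.537 and 0.300 against 52.6 and 73.6. Sfi1, a centrosomal protein gene, stood at 24.5 and 21.0 against 97.4 and 99.7, but it was scored at both gene ends. Its WT peaks lay from 3201575 to 3203798 on chromosome 11 and its KO peaks from 3131907 to 3132345. The Sfi1 ranks thus compare different sites and show no rise of 1 peak. The uncharacterised E030030I06Rik stood at 10.6 and 7.24 against 95 and 86.7. Gm4951 completed the 10, at 25.7 and 25.3 against 95 and 98.3. Hs3st5, Tmem200a, E030030I06Rik, Fuca2 and Lgr5 all lie on chromosome 10.

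Depth-scaled pileup was higher in KO at only a handful of features. Scaled to 1000000 fragments, both KO libraries were below both WT libraries at 7150 of 7174 features (99.7%) and above at 5 (0.0697%). The 5 were Ifi27l2a, Cck, Hs3st5, Pgm5 and 1700001C19Rik. All 5 stood at WT percentiles of 2.45 or less. Some of the differences rest on few fragments, as at Pgm5 with a pileup of 14 and 14 in KO. The scaled values were not tested, so these differences do not show a gain. Ifi27l2a had a scaled pileup of 3.09 and 2.59 in WT and 3.99 and 4.04 in KO. For Hs3st5 the values were 3.98 and 4.04 against 4.17 and 4.21, a narrow difference.

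Of the 10 genes with the smallest p among those ranked lower in KO, 4 had start sites between 41713517 and 43493365 on chromosome 4. Ccdc107, a coiled-coil protein gene (43493340 to 43495921), had a pileup of 176 and 94 fragments in WT and 10 and 10 in KO. Its percentiles were 98.9 and 99.6 in WT against 4.81 and 3.02 in KO, a difference of −95.3 points with a standard error of 17.2, and its log2 relative difference was −1.66 (limma adjusted p = 1.19e-04). Dctn3, a dynactin subunit gene, went from 98.8 and 97.4 to 14.4 and 25.6. Rusc2, a vesicle trafficking adaptor gene, stood at 94.7 and 94.1 against 21.0 and 13.5. Rpp25l, which encodes a protein related to a ribonuclease P subunit, stood at 97.1 and 97.1 against 36.3 and 25.6. In each the KO libraries lay below the WT libraries, which picking by smallest p favours.

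The other 6 were on other parts of the genome. Jak1, a cytokine receptor kinase gene, had pileups of 189 and 89 in WT and 10 and 18 in KO, with percentiles of 99.4 and 99.0 against 4.81 and 47.7. Its KO libraries were far apart, although both were below WT. H4f16, whose upstream sequence is printed above, stood at 95.5 and 95.1 against 21.0 and 32.5. Sf3b2, a splicing factor gene, stood at 98.0 and 99.7 against 52.6 and 68.1. Gng12, a G protein gamma subunit gene, stood at 95.2 and 98.3 against 52.6 and 47.7, and Zswim4 at 97.1 and 96.1 against 44.5 and 39.9. Gm51425 was low in both groups, at 27.1 and 33.3 against 0.669 and 0.348. Of these 6, Jak1 (adjusted p = 0.00424) and H4f16 (0.0211) were among the calls on the log2 relative scale by limma, and the other 4 were not.

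**Figure D4:**
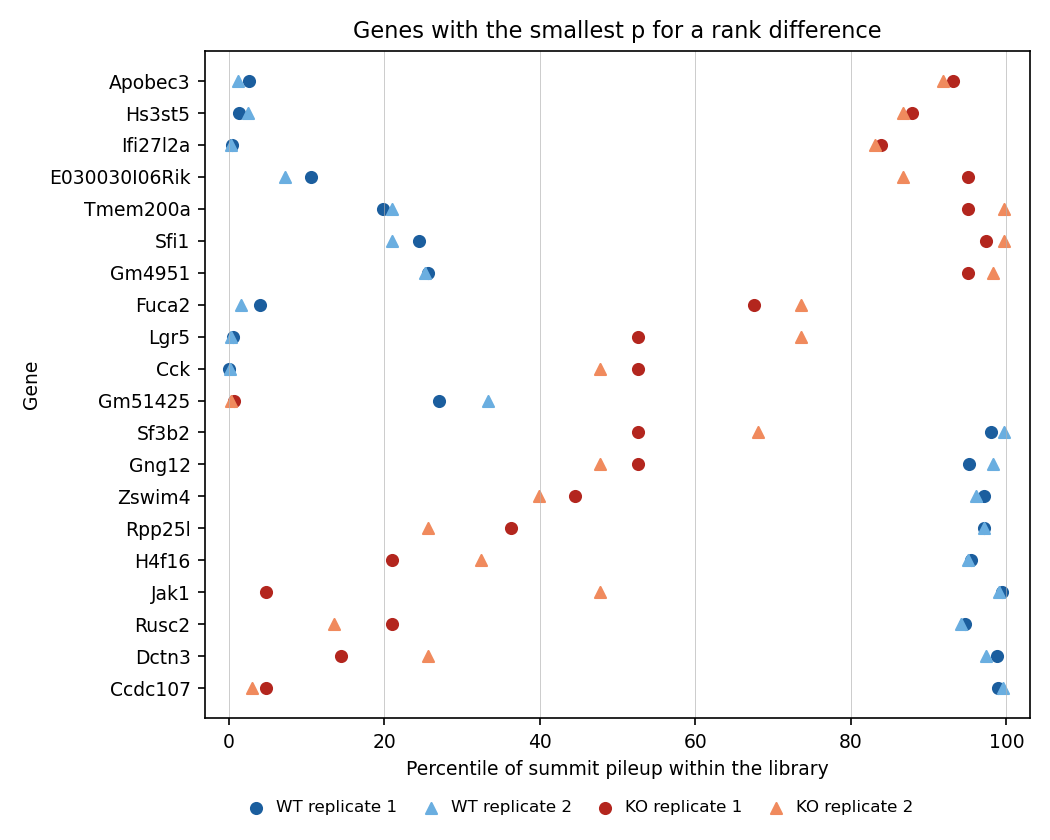
Percentile of summit pileup within each library (horizontal axis) for the 10 genes with the smallest p in each direction (vertical axis), circles for replicate 1 and triangles for replicate 2. In every gene both KO points lie on the same side of both WT points, from Apobec3 at the top to Ccdc107 at the bottom. Picking by p favours such separation, which 22.3% (KO above) and 21.6% (KO below) of all features also had. Of these genes 0 passed the rank test.

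Rank differences were not evenly spread over the genome. The median KO minus WT percentile was 16.5 points on chromosome 10 (438 features), 10.2 on chromosome 16 and 8.31 on chromosome 11, against −10.1 on chromosome 19 and −7.43 on chromosome 6. The median over all features was 0.0697, with a middle range of −11.5 to 11.5. H3K4me1 leaned the same way on these 5 chromosomes. The mean H3K4me1 pileup on chromosome 10 was 1.01 and 1.00 times that on the other autosomes in WT and 1.16 and 1.16 times in KO. On chromosome 16 it was 0.887 and 0.889 against 0.936 and 0.936 times, and on chromosome 11 it was 0.987 and 0.995 against 1.03 and 1.03 times. On chromosome 19 it was 1.07 and 1.06 against 1.01 and 1.01 times, and on chromosome 6 it was 1.02 and 1.02 against 0.966 and 0.967 times. Of the 100 genes with the smallest p among those higher in KO, 32 were on chromosome 10, and of the 43 called on the log2 relative scale 13 were. The median peak length differed by −584 bp without chromosome 10, close to the value with it.

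Among 449 bins of 2 Mb with at least 6 features, the bin from 42 to 44 Mb on chromosome 4 had the lowest median, −61.0 points, and 10 of its 10 features ranked lower in KO. The median H3K4me3 pileup of its peaks was 1.13 and 1.5 times that elsewhere in WT and 0.812 and 0.765 times in KO. H3K4me1 went the same way: the bin held 49 and 52 H3K4me1 peaks in WT and 29 and 28 in KO, with relative pileups of 1.16 and 1.06 against 1.00 and 0.824. It holds Ccdc107 and Rusc2. Copy number was not measured, and its part in any of these chromosome or bin values was not tested.

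**Figure D5:**
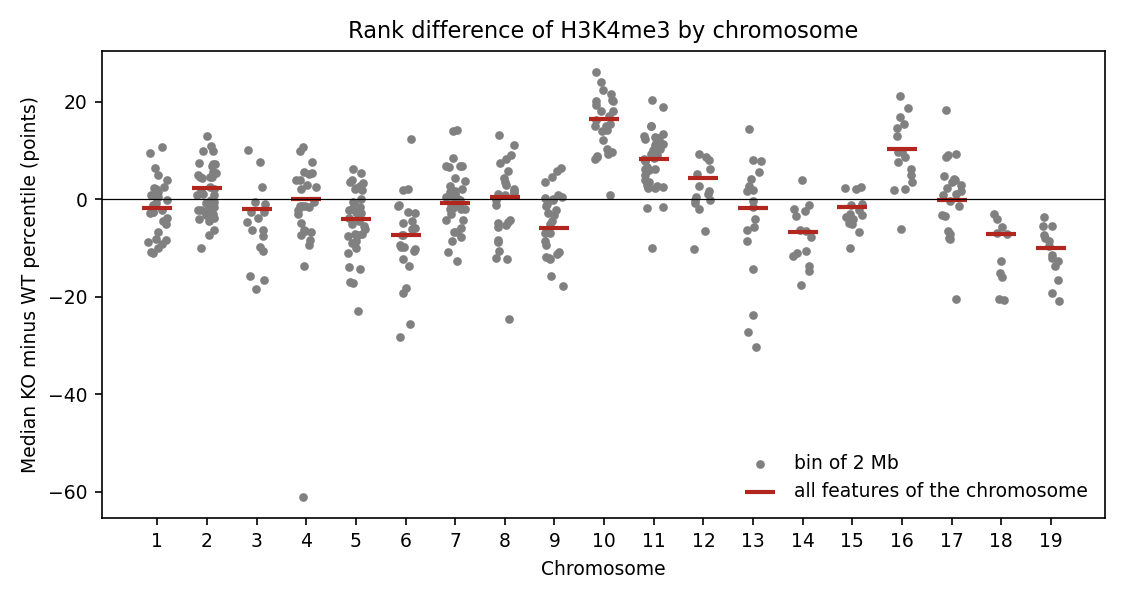
Median KO minus WT percentile of H3K4me3 pileup (vertical axis, points) for bins of 2 Mb with at least 6 features (grey points, spread sideways at random) on each autosome (horizontal axis), with the median of all features of a chromosome as a red bar. Chromosome 10 stands highest at 16.5 points, and 1 bin of chromosome 4 stands apart at −61.0 points.

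Covered length was tested in the same way, on log2 bases covered by the peaks at a gene minus the library median. Limma called 0 of 7174 features (0%, smallest adjusted p = 0.114), with 868 longer (12.1%) and 784 shorter (10.9%) in KO at an unadjusted p under 0.05, 23.0% in all. Without KO replicate 1 it called 4076 features and without KO replicate 2 it called 4399, while without WT replicate 1 it called 1 and without WT replicate 2 it called 0. In the first 2 of these fits the lone KO library is assumed to vary like the WT libraries, whereas the lengths of the KO pair were less alike (rho 0.449 against 0.868). These fits also hold more features, 8275 and 7763, and the cause of the change in calls was not tested.

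The genes that stayed long in KO kept most of their WT length. Urm1 was covered over 1777 and 1542 bp in WT against 1543 and 1482 bp in KO, and Zfp948, a zinc finger gene, over 1796 and 1643 bp against 1416 and 1594 bp. E030030I06Rik was covered over 1524 and 1078 bp against 1355 and 1461 bp. Kbtbd4 and Ndufs3, which share a promoter region and were 1 feature, were covered over 1766 and 1678 bp against 1467 and 1603 bp. Relative to the library median the differences of these 4 features were 0.93 to 1.26 on the log2 scale, and none passed (limma adjusted p = 0.122 to 0.127).

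Genes at the other end had broad or multiple WT peaks and a short KO peak. For Frmd4a, Lrrc75a and Btf3l4, the peaks of the KO libraries did not overlap each other. The WT lengths of Frmd4a, Lrrc75a and Tnrc6b sum peaks at separate starts or gene ends. Frmd4a, a scaffold protein gene with several starts, was covered over 5312 and 4035 bp in WT and 334 and 292 bp in KO. Cux1 was covered over 3909 and 3299 bp against 266 and 279 bp, although its pileup ranked at 81.2 and 84.1 in WT and 93.1 and 86.7 in KO. Tnrc6b, a gene of microRNA silencing, was covered over 4605 and 3732 bp against 454 and 588 bp. Lrrc75a had 3647 and 2924 bp against 312 and 332 bp, and Btf3l4 had 3085 and 2973 bp against 289 and 313 bp. The 5 differences were −1.88 to −2.76 relative to the library median on the log2 scale, each with a limma adjusted p of 0.114, and did not pass.

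Some genes had H3K4me3 at the start in WT and none there in KO. Of 11978 genes with a peak in any library, 7934 had one in all 4 and 1646 (13.7%) in both WT and neither KO library. In WT replicate 2 these 1646 genes had weak peaks, at a median percentile of 9.82 against 60.0 for genes with a peak in all 4. Absence here is only that no peak passed the caller's cutoff within 1 kb of the start, and 252 of the 1646 had a KO peak over the same WT peak, further out. This was so for 8 of the 10 strongest: Lrig1, a negative regulator of growth factor receptors, Mex3d, Hoxb6, Zxdc, Bcl9l, a Wnt pathway coactivator gene, Hoxc6, Xpo1, the nuclear export receptor gene, and Htr1b. Lrig1 had WT pileups of 187 and 93 over 2718 and 2623 bp. The remaining 2 had no KO peak over the WT one. Of these, Pcdh7, a protocadherin gene, had WT pileups of 160 and 82 over 799 and 485 bp.

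Some markers of the labelled cell type had a peak in all 4 libraries, and others only in WT. Of 30 fibroblast genes, 12 had a peak in all 4 libraries, 7 in both WT and neither KO, 8 in other combinations and 3 in none. The 7 were Col1a2, Fbn1, Lum, Fstl1, Twist1, Twist2 and Prrx1. The 7 were 25.9% of the 27 with any peak, against 13.7% of all genes. Ranks exist only for the 12, which were kept because all 4 libraries had a peak at them. These 12 ranked high in both groups, with a median percentile of 84.9 in WT and 86.3 in KO. Their median difference was 3.24 points, 7 higher and 5 lower. Col6a3 and Postn, which encode matrix proteins, stood at 83.7 and 97.1 against 52.6 and 61.9, and at 85.9 and 89.4 against 73.8 and 68.1. Dcn, a proteoglycan gene on chromosome 10, stood at 49.1 and 56.5 against 87.8 and 61.9, and Timp2, a metalloproteinase inhibitor gene, at 70.3 and 71.9 against 90.8 and 78.7. Markers of other cell types had mostly no peak in any library: 11 of 15 pluripotency genes, 12 of 15 haematopoietic, 12 of 14 endothelial, 14 of 15 epithelial, 10 of 14 neural and 15 of 16 myogenic genes. Flt1, on the endothelial list, was the only member of these lists with a peak in all 4 libraries, at percentiles of 76.4 and 76.4 in WT and 73.8 and 78.7 in KO.

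Mesenchymal transcription factors were described apart from the fibroblast genes. Of 30, 7 had a peak in all 4 libraries and 10 in both WT and neither KO, namely Prrx1, Twist1, Twist2, Zeb1, Meox2, Runx1, Foxf2, Osr1, Nfix and Tead1. The 10 were 41.7% of the 24 with any peak, against 13.7% of all genes, a difference that was not tested; Prrx1, Twist1 and Twist2 are on both lists. The 7 had a median difference of 9.69 points, 5 higher and 2 lower. Prrx2, a paired-type homeobox gene, stood at 13.3 and 17.1 in WT and 67.6 and 68.1 in KO, without overlap.

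Genes tied to Fbxw7 function ranked on both sides. Of 30 substrate genes, 16 had a peak in all 4 libraries, 4 ranked higher and 12 lower, with a median difference of −4.89 points. Aurkb, a mitotic kinase gene, stood at 60.2 and 44.8 in WT against 14.4 and 25.6 in KO, and Nfkb2, an NF-kappaB subunit gene, at 49.1 and 50.4 against 28.4 and 8.82. Cebpd, a transcription factor gene, stood at 13.3 and 21.0 against 28.4 and 61.9. Junb, Mcl1 and Myb had a peak in both WT libraries and neither KO library, 10.7% of the 28 with any peak, against 13.7% of all genes. Of the SCF ligase and its partners, 18 of 22 had a peak in all 4 libraries, with 8 higher, 10 lower and a median of −1.26. A peak in both WT and neither KO library was seen at 0 of the 22. Rbx1, the RING subunit gene, stood at 79.4 and 80.4 against 73.8 and 19.3, and Cul1, the scaffold gene, at 57.8 and 66.8 against 14.4 and 47.7, so the KO libraries disagreed for both. In the Notch pathway 16 of 35 had a peak in all 4 libraries, 8 higher and 8 lower, with a median of 1.13. The ligand gene Dll1 stood at 42.1 and 47.6 against 97.4 and 78.7. Dll4, Hes1, Rbpj and Lfng had a peak in both WT and neither KO library, 14.3% of the 28 with any peak, close to the 13.7% of all genes.

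The machinery of the mark was also spread to both sides. Of 29 autosomal genes for writers and readers of H3K4me3, 20 had a peak in all 4 libraries, with 11 higher, 9 lower and a median of 0.404 points. Cxxc1, the CpG-binding subunit of the SET1 complexes, stood at 16.8 and 41.9 in WT against 4.81 and 5.49 in KO, and Ing5, a reader of the mark, at 52.0 and 56.5 against 8.89 and 32.5. Spin1, another reader, stood at 43.5 and 25.3 against 60.5 and 73.6. Setd1b, a writer, had a peak in both WT and neither KO library, 3.70% of the 27 with any peak, against 13.7% of all genes. Of 12 demethylase and corepressor genes, 6 had a peak in all 4 libraries and all 6 ranked higher, by a median of 4.92 points. The largest difference among them was at Hdac2, at 70.3 and 61.8 against 90.8 and 95.1, which lies on chromosome 10. Kdm5b and Rcor2 had a peak in both WT and neither KO library, 18.2% of the 11 with any peak.

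Immediate early genes, which respond to growth signals within minutes, had the lowest median among the lists, −9.35 points over the 10 of 31 with a peak in all 4 libraries. Egr1 had pileups of 129 and 48 in WT and 10 and 12 in KO, with percentiles of 82.9 and 44.8 against 4.81 and 8.82. Maff stood at 18.8 and 38.8 against 2.12 and 3.02, and Klf10 at 46.3 and 38.8 against 28.4 and 13.5. Ccn2, which lies on chromosome 10, stood at 20.9 and 21.0 against 52.6 and 47.7. Of the 10, 3 ranked higher and 7 lower, and 2 were lower at an unadjusted limma p under 0.05, against 5.74% of all features. A further 9, Fosl2, Junb, Ier2, Ier3, Btg1, Dusp2, Klf6, Nr4a3 and Zfp36, had a peak in both WT and neither KO library, 9 of 30 with any peak (30%), against 13.7% of all genes.

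Growth and housekeeping lists had medians on both sides of 0. Ribosomal protein genes had a median of 6.27 points (30 of 40 in all 4 libraries, 17 higher, 13 lower), with Rps6 at 40.6 and 25.3 against 73.8 and 68.1 and Rpl37 at 72.8 and 64.3 against 36.3 and 25.6. Proteasome genes had a median of −1.04 (28 of 31) and oxidative phosphorylation genes one of −2.21 (34 of 36). Uqcrc1, a complex III subunit gene, stood at 72.8 and 71.9 against 14.4 and 13.5, and Ndufa10, a complex I subunit gene, at 44.9 and 38.8 against 87.8 and 78.7. Glycolysis genes had 3 higher, 10 lower and a median of −7.38, with Gpi1 at 92.9 and 88.3 against 79.3 and 39.9. Sterol synthesis genes had 12 higher, 12 lower and a median of 0.795. Lss, the lanosterol synthase gene on chromosome 10, stood at 39.1 and 41.9 against 87.8 and 78.7. Of the members with any peak, 2.50% of ribosomal protein genes had one in both WT and neither KO library. That share was 0% for proteasome, 2.78% for oxidative phosphorylation, 5.26% for glycolysis and 0% for sterol synthesis, against 13.7% of all genes.

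Genes of the cell cycle divided evenly, with 8 higher and 8 lower of 16 and a median of 0.153 points. Cdk1, on chromosome 10, stood at 77.4 and 61.8 in WT against 90.8 and 93.6 in KO, and Ccnb1, its cyclin partner gene, at 50.5 and 66.8 against 36.3 and 32.5. Another 8, Ccna2, Ccnb2, Cdk6, Cdkn1b, E2f2, Cdc20, Cdc6 and Cdt1, had a peak in both WT and neither KO library, 27.6% of the 29 with any peak, against 13.7% of all genes. DNA replication genes had 12 higher and 20 lower, with a median of −4.32. Orc1, an origin recognition subunit gene that shares its peak with Prpf38a, stood at 57.8 and 74.2 against 21.0 and 19.3, and Gins4, a replicative helicase subunit gene, at 30.9 and 21.0 against 52.6 and 78.7. For p53 targets the median was −1.41, with 6 higher and 8 lower. Of the members with any peak, 7.89% of DNA replication genes and 3.85% of p53 targets had one in both WT and neither KO library. No member of any list passed the rank test.

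H3K4me1 was read on the bases where H3K4me3 was found in both WT and neither KO library, 7.90 Mb in all. H3K4me1 peaks covered 5.54% and 4.65% of these bases in the WT and 6.26% and 5.07% in the KO H3K4me1 libraries. The ranges overlapped, and the difference of 0.569 points had an exact two-sided permutation p of 0.667. It turned to −0.0266 points without the KO replicate 1 library of H3K4me1. On the 4.33 Mb with H3K4me3 in all 4 libraries, coverage was 1.81% and 1.53% in WT and 1.72% and 1.41% in KO.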

How the data were processed

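The 4 H3K4me3 and 4 H3K4me1 peak lists were used, 1 per library, with genotype and replicate number read from the titles. Per the submitters' processing notes the build was mm10 and the tools included Bowtie2, SAMtools 1.5, bedtools, MACS2, deepTools and HOMER 4.10. Per the file headers, the authors called narrow peaks in each library with MACS2 2.1.0.20150731 at a q cutoff of 0.01 with no control library. The deposited pileup signal is the fragment count over a summit, not scaled to depth; the deposited −log10 q values depend on depth and were used only to filter or rank peaks; peak length is in base pairs. Because the cutoff acts on enrichment, a library with lower enrichment gives fewer and shorter peaks.

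Genes (20665 protein-coding, autosomal) came from RefSeq tables of GRCm38.p6 and were scored within 1 kb of their listed starts (16457 genes) or, without one, of both gene ends (4208). Ranks and lengths were tested with limma 3.58.1 (trend, Benjamini-Hochberg over all features, threshold 0.05) in R 4.3.3, values per library with exact permutation tests, and the overlap counts and fits were tested on simulated data. Named genes are Fbxw7, the 10 of smallest p per direction of rank, 5 per direction of length, the 10 best-ranked with a peak in both WT and neither KO library, and list members with the largest rank differences; a few of these are not reported here. The members and the 22 gene lists were chosen with earlier results of these data known. Alternatives were the peak cutoff, list length, window, scale, gene set, replicate block, chromosome 10 and each library left out.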

Additional observations from a re-analysis of the deposited data

How the results depend on the processing

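The peak length difference, −578 bp, was −496 to −658 bp with each library left out and −839 bp with lists of equal length. Leaving out each library also gave −418 to −514 bp for the upstream extent, −297 to −388 bp for the downstream extent, −44.4 to −57.3 points for start coverage, 0.0367 to 0.0698 for the pileup range, and −0.0266 to 1.16 points for H3K4me1. The H3K4me1 value turned negative without KO replicate 1 (−0.0266). The difference in pileup range was 0.0298 with −log10 q of at least 5 and 0.0304 with lists of equal length. Calls for rank stayed at 0, and those for length went from 0 to 4399 (1 without WT replicate 1, 4076 without KO replicate 1, 4399 without KO replicate 2). The KO minus WT difference in peaks per WT region, −0.279, was −0.401 with −log10 q of at least 5 and −0.0180 with lists of equal length. The share of a region covered, −35.6 points, was −38.6 with lists of equal length and −43.8 with WT replicate 2 regions. The CG difference was −3 in a 2 kb window and 0 with lists of equal length. Rank calls numbered 59 on the log2 relative scale. Of 98 values for named genes, 0 reversed; 18 rank values passed the threshold on that scale alone, and 10 length values passed in both fits without a KO library. The cause of these moves was not tested. Same-numbered libraries did not deviate together (r = −0.00473 for rank, 0.0193 for length, over 7174 features). This cannot show whether same-numbered libraries were made together, because the KO deviations are mostly those of small counts. With the replicate block the fits called 0 features, peak length differed by −578 bp (exact p = 0.5, the smallest for 2 pairs), and no call changed. Low pileup limits the KO ranks: 17 and 18 fragments at the median gene, against 50 in WT replicate 2 at like depth, leave few steps between genes.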

Other observations

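Interferon response genes were looked at after Apobec3 and Ifi27l2a had been seen among the genes ranked higher in KO, so their direction is not independent evidence. Of 53 autosomal genes on that list, 39 had an H3K4me3 peak in all 4 libraries, 31 with a higher and 8 with a lower mean percentile in KO. The median difference was 13.1 points, against 0.0697 over all features. In the limma rank fit 0 passed; 9 of the 39 were higher at an unadjusted p under 0.05, against 5.84% of all features, and 0 were lower. On the log2 relative scale limma called 5 of them higher and 0 lower, namely Apobec3, Ifi27l2a, Ifi44, Lgals9 and Il15, against 0.599% of all features called higher. Apobec3 and Ifi27l2a, which prompted the list, are counted among the higher genes in each of these values. Ifi27l2a (WT percentiles 0.460 and 0.300) and Ifi44 (0.118 and 0.551) were also so weak in WT that the need for a KO peak favoured a higher value. The share of calls is therefore not a test of the list. Lgals9, which encodes a galectin, had pileups of 50 and 33 fragments in WT and 24 and 22 in KO, and percentiles of 2.19 and 10.1 against 90.8 and 73.6. Il15, a cytokine gene, stood at 19.8 and 7.24 against 87.8 and 73.6. Dhx58, Isg15 and Zbp1 had a peak in both WT and neither KO library, 5.66% of the 53 with any peak, against 13.7% of all genes.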
